A study of Mus musculus with 6 samples.

Results

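H3K27me3 peaks were compared between the ChIPSeq peak list of NSC Bmi1Over and that of control NSC, and the regions described here were called in NSC Bmi1Over only. They are the 809 NSC Bmi1Over peaks on chromosomes 1 to 19 that overlapped no NSC peak by at least 1 bp, out of 5790 NSC Bmi1Over peaks on these chromosomes and 6810 in the whole list. The other 4981 autosomal NSC Bmi1Over peaks, called shared peaks here, overlapped an NSC peak. Both lists came from neural stem cells (NSC) prepared from E16.5 mouse embryos, dissected from the cerebral hemispheres and grown with EGF and FGF. The control NSC were wild type. The NSC Bmi1Over cells were STOPFloxBmi1;NestinCre, in which Cre driven by the Nestin promoter removes a stop cassette in front of a Bmi1 transgene in neural progenitors. RNASeq covered 2 cultures of either genotype. The mGIC samples were not analysed here.

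The peaks were selected on the peak calls themselves, so their lengths, fold enrichments and gaps to NSC peaks are given as descriptions. A peak without an NSC overlap has no value in the NSC list: it lay below the calling threshold there, and the NSC signal under it is unknown. With 1 ChIPSeq library per genotype there was no replicate check, and no difference between the lists was tested. Intervals on shares are 95% Wilson intervals that cover counting error only, and neighbouring peaks are not independent.

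Polycomb proteins keep developmental genes silent. The PRC2 complex, with Ezh2 as its enzyme, trimethylates lysine 27 of histone H3, and the PRC1 complexes, one of which contains Bmi1, bind the mark and ubiquitinate histone H2A. In neural stem cells H3K27me3 forms broad domains over the CpG-rich promoters of transcription factors of other lineages, and signal of lower density spreads from these domains into the surrounding chromatin.

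To show what kind of DNA these peaks covered, the central bases, at most 300, are printed for the unshared peaks that ranked second and next by fold enrichment and for the 3 highest within 1 kb of the transcription start site (TSS) of a protein-coding gene. The shared peak of highest fold enrichment is printed beside them for contrast. The sequences are from the RefSeq copy of GRCm38.p6 (mm10), and CpG dinucleotides, the sites that are dense in the promoters Polycomb usually occupies, are in capitals.
Second by fold, intron of Gm27166, chr9:33067287-33067524, plus strand: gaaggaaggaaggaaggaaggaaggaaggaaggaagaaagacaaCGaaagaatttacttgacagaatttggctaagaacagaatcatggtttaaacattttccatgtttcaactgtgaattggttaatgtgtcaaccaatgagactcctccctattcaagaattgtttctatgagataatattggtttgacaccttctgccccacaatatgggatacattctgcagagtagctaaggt
Next by fold, between genes near Thoc3, chr13:54443092-54443316, plus strand: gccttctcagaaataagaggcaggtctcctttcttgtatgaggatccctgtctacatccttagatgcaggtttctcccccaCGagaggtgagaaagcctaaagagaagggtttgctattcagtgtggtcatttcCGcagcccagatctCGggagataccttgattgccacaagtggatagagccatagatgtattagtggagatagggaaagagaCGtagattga
Near Magel2, chr7:62375836-62376135, plus strand: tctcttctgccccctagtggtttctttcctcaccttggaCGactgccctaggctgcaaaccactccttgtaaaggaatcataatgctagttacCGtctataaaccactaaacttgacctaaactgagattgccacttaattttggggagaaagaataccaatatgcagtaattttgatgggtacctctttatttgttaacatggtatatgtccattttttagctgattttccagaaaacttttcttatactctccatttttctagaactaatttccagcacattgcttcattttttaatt
Near Ppef2, chr5:92257223-92257522, plus strand: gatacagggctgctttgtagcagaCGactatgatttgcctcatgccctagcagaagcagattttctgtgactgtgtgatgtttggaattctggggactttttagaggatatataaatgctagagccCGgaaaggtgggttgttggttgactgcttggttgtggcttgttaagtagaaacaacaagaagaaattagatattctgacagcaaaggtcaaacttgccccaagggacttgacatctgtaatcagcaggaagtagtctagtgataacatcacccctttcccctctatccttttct
Near Tenm2, chr11:36676850-36677052, plus strand: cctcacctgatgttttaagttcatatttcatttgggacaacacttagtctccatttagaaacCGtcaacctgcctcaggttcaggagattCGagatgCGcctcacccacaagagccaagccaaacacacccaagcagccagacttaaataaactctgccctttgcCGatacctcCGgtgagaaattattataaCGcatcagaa
Peak overlapping an NSC peak, chr9:35305220-35305519, plus strand: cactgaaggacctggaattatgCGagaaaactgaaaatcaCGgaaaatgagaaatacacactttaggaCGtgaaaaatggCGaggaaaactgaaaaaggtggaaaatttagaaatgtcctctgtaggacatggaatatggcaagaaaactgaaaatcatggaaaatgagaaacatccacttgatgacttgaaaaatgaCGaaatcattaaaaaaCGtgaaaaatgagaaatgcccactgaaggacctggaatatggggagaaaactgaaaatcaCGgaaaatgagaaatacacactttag

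The unshared peaks in Gm27166 and near Thoc3 held 1 and 4 CpG in the printed bases, and those near Magel2, Ppef2 and Tenm2 held 2, 2 and 6. The sequence in Gm27166 opens with a run of a 4-base repeat, whereas the sequences near Thoc3 and Tenm2 held no base soft-masked as a repeat. The peak near Ppef2 was masked over 65.8% of its bases. The shared peak, with 7 CpG in the printed bases and 68.2% of its bases masked, is built of the short tandem unit of mouse satellite DNA. Its fold enrichment of 97.18 was the highest of the autosomal list, and reads from such repeats are hard to place in the genome.

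In the 4 RNASeq libraries, between 18112100 and 61353076 reads were counted on genes. Bmi1 itself, the check of the genotype, was at 133 and 124 CPM (counts scaled to the size of the library) in NSC and at 119 and 113 CPM in the libraries labelled NSC Bmi1Over, with a log2 fold change of −0.15 ± 0.12 (SE, n = 2 per group; adjusted p = 0.46, edgeR). Its level was thus not raised, and directions given below rest on the labels. Markers of the labelled cell type, neural stem cells, summed to 5950 and 6620 CPM in NSC and to 6500 and 6650 CPM in the libraries labelled NSC Bmi1Over. The members of this list of 9 went both ways, with log2 fold changes of 0.46 for Slc1a3 and 0.08 for Nes, and of −0.42 for Sox2, −0.42 for Fabp7, −0.28 for Pax6 and −0.74 for Hes5, and no adjusted p of these 6 was under 0.13 (edgeR). Neuronal markers summed to 51.6 and 67.2 CPM against 93.1 and 138 CPM, and 1 of 5 was called, Syt1, a synaptic vesicle protein, at 9.13 and 27.2 against 66.5 and 95.8 CPM. Syt1 carried the sum, as the log2 fold changes of Tubb3, Dcx, Snap25 and Rbfox3 were −0.22, −0.21, −0.48 and 0.06. Astrocyte markers summed to 140 and 111 CPM against 84.6 and 65 CPM, and 1 of 4 was called, Aldh1l1, at 122 and 94.2 against 66 and 53.3 CPM. It likewise carried the sum, beside log2 fold changes of 0.03 for Gfap, −0.06 for Aqp4 and −0.29 for S100b. Oligodendrocyte lineage markers summed to between 865 and 1040 CPM in the 4 libraries, mostly through Olig2, which neural progenitors also express. Mesenchymal, microglial and endothelial markers summed to at most 3.08 CPM in any library, and 4 of 4 erythroid markers were at 0. The part of Syt1, Aldh1l1 and these lists in the results below was not tested, and in bulk RNA fewer cells of a type and less RNA per cell cannot be told apart.

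The unshared peaks were short. Their length ranged from 200 to 801 bp with a median of 234 bp, and the middle 50% lay between 200 and 326 bp. At the shortest length called, 200 bp, or 1 bp above it, were 306 of the 809 unshared peaks (37.8%) and 514 of the 4981 shared peaks (10.3%), whose median length was 465 bp and whose maximum was 15320 bp. Read the other way, of the autosomal NSC Bmi1Over peaks of these lengths 37.3% were unshared, of those between 300 and 500 bp 14.8%, of those between 500 and 1000 bp 2.66%, and of the 1089 peaks of 1000 bp or more 0. Together the unshared peaks covered 222897 bp, which was 4.97% of all bases in autosomal NSC Bmi1Over peaks, although they made up 14% of the peaks.

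They were also weakly enriched. Fold enrichment, the ratio of reads in a peak to the MACS2 background as the authors' caller gave it, ranged from 4.03 to 7.45 with a median of 4.48, against a median of 4.95 in shared peaks. A fold enrichment of at least 5 was reached by 139 unshared peaks (17.2%) and by 2365 shared peaks (47.5%). The share of autosomal NSC Bmi1Over peaks that were unshared was 25% at a fold under 4.5, 15.6% between 4.5 and 5, 7.04% between 5 and 6, and 1.82% at 6 or more. The median −log10 q was 2.63 in unshared and 3.36 in shared peaks. The unshared peaks thus lay towards the calling threshold, which was itself not the same in both lists: the lowest fold enrichment called was 3.52 in NSC and 4.03 in NSC Bmi1Over.

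**Figure D1:**
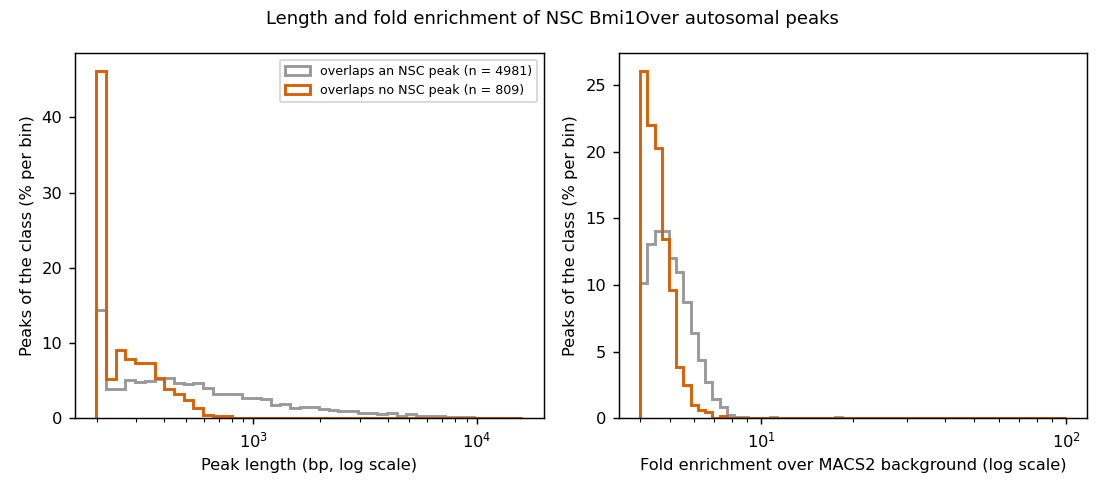
Length (left, bp) and fold enrichment over the MACS2 background (right), both on log axes, of the 809 NSC Bmi1Over peaks without an NSC overlap (orange) and the 4981 with one (grey), as percent of each class per bin. The unshared peaks pile up at the shortest lengths, with 37.8% within 1 bp of the minimum of 200 bp, and 17.2% of them had a fold enrichment of at least 5.

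At the edge of the selection, peaks on either side of it were much alike. Just inside it, a 200 bp peak at chr14:76304855-76305054 (fold enrichment 5.0) and a 384 bp peak at chr6:49440271-49440654 (4.14) touched an NSC peak without sharing a base. A 311 bp peak in an intron of Foxp2, a transcription factor of vocal and motor circuits, at chr6:15292539-15292849 (4.31) and a 364 bp peak at chr6:112260280-112260643 (4.54) lay 2 bp away from one. A 200 bp peak at chr19:59175985-59176184 (4.07) lay 3 bp away, 5929 bp from the TSS of Vax1, a homeobox gene of the ventral forebrain. Just outside it, 5 shared peaks overlapped an NSC peak by 1, 2, 4, 5 and 7 bp, with lengths of 200, 305, 620, 581 and 206 bp and fold enrichments of 4.8, 5.42, 4.72, 4.29 and 5.3. Most shared peaks were far from this edge, as 3752 of the 4981 (75.3%) lay with all their bases in NSC peaks and 336 (6.75%) with less than 50% of them.

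Most unshared peaks lay beside an NSC peak rather than in separate parts of the genome. The median gap to the nearest NSC peak was 651 bp, and the middle 50% of gaps lay between 226 and 3289 bp. Within 1 kb of an NSC peak were 474 of the 809 (58.6%, interval 55.2 to 61.9%) and within 5 kb 632 (78.1%, interval 75.1 to 80.8%). The bases within 1 kb of an NSC peak, peaks themselves left out, make up 0.474% of the autosomal sequence outside NSC peaks, and those within 5 kb 1.51%. Counted per length, there were 41.9 unshared peaks per Mb at up to 1 kb from an NSC peak, 6.39 per Mb between 1 and 5 kb, 0.341 per Mb between 5 and 100 kb, and 0.0294 per Mb beyond 100 kb. In the opposite direction, the 6987 autosomal NSC peaks that no NSC Bmi1Over peak overlapped lay at a median of 4415 bp from the nearest NSC Bmi1Over peak, and 23.3% of them within 1 kb. The lists differ in number (9430 autosomal NSC peaks and 5790 in NSC Bmi1Over), so these medians compare unlike densities.

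**Figure D2:**
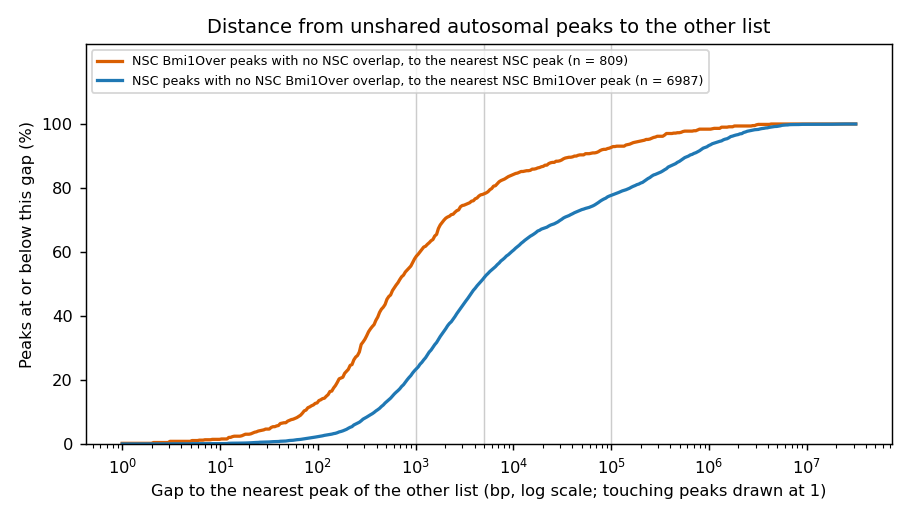
Cumulative percent of peaks (vertical axis) by the gap to the nearest peak of the other list (bp, log scale), for the 809 unshared NSC Bmi1Over peaks (orange) and the 6987 unshared NSC peaks (blue), with grey lines at 1, 5 and 100 kb. The orange curve reaches 58.6% at 1 kb and 78.1% at 5 kb, and 7.29% of the unshared NSC Bmi1Over peaks lie beyond 100 kb.

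The unshared peaks fell into 4 settings by place. NSC peaks lay within 5 kb on both sides of 328 (40.5%), with a median of 1730 bp between the flanking NSC peaks, so that these peaks lay in the spaces between NSC peaks. Another 304 (37.6%) had an NSC peak within 5 kb on 1 side only, 118 (14.6%) were 5 to 100 kb away from any, and 59 (7.29%) were further than 100 kb. The 632 peaks within 5 kb lay beside 599 different NSC peaks, so that few NSC peaks had more than 1 such neighbour. These NSC peaks were ordinary ones: the nearest NSC peak had a median length of 392 bp and a median fold enrichment of 4.06, where all autosomal NSC peaks had 401 bp and 4.13. For 175 of the 809 (21.6%, interval 18.9 to 24.6%) the nearest NSC peak was itself overlapped by an NSC Bmi1Over peak, against 25.9% of all autosomal NSC peaks. A shared NSC Bmi1Over peak lay within 5 kb of 352 unshared peaks (43.5%) and within 1 kb of 129 (15.9%). At many of these sites the NSC list thus had a peak close by that the NSC Bmi1Over list lacked, and the NSC Bmi1Over list had its own beside it.

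Relative to genes, the unshared peaks fell into exons, introns and the kilobase around a TSS in shares near those of the genome, and were more frequent than its bases within 5 kb of a coding TSS. By the position of their midpoint, 53 (6.55%, interval 5.04 to 8.47%) were within 1 kb of a TSS, 31 (3.83%) in an exon, 342 (42.3%, interval 38.9 to 45.7%) in an intron and 383 (47.3%, interval 43.9 to 50.8%) in no annotated gene. Of all autosomal bases, 6.28%, 3.37%, 40.3% and 50.1% fall into these classes. Shared peaks were within 1 kb of a TSS in 20.5% and NSC peaks without an NSC Bmi1Over overlap in 17.4%. Within 5 kb of the TSS of a protein-coding gene lay 193 unshared peaks (23.9%, interval 21 to 26.9%), 48.5% of shared peaks and 14.7% of autosomal bases. Since shared peaks are longer, the same was counted for peaks under 300 bp only, a limit chosen after the data were seen. Of 555 such unshared peaks 7.39% (interval 5.49 to 9.87%) were within 1 kb of a TSS, and of 1379 such shared peaks 20% (interval 18 to 22.2%). Within 5 kb of a coding TSS the shares were 24.0% and 41.2%.

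**Figure D3:**
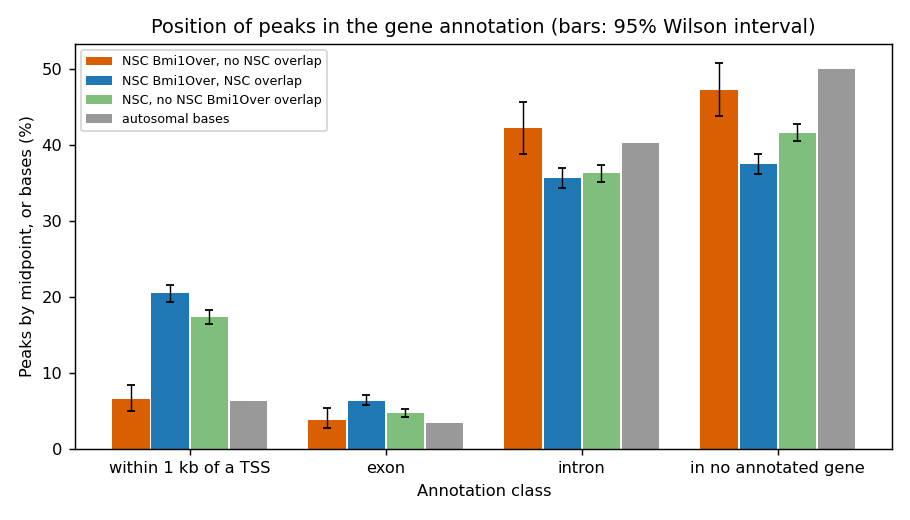
Percent of peaks by the annotation class of their midpoint, with 95% Wilson intervals, for unshared NSC Bmi1Over peaks (orange), shared NSC Bmi1Over peaks (blue) and unshared NSC peaks (green), beside the percent of autosomal bases in each class (grey). The unshared NSC Bmi1Over peaks are within 1 kb of a TSS in 6.55%, near the 6.28% of bases, whereas 20.5% of shared peaks are.

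The unshared peaks were poorer in CpG than the shared peaks, and no CpG value was computed for the genome. The median GC content was 43.9%, against 46.6% in shared peaks, 46.9% in unshared NSC peaks and 41.9% over the genome. The median ratio of observed to expected CpG was 0.166, against 0.266 in shared peaks. A ratio of at least 0.6, a usual limit for CpG islands, was reached by 11 unshared peaks (1.36%) and by 513 shared peaks (10.3%). Among peaks under 300 bp it was reached by 1.8% of unshared and 10.7% of shared peaks, so the gap was there at like lengths. No CpG at all was found in 139 unshared peaks (17.2%). Repeats were not more frequent than in the genome, as 19.9% of the bases of unshared peaks were soft-masked, against 16.3% in shared peaks and 33.5% over the genome, and 82 unshared peaks (10.1%) were masked over more than 50% of their length. Since the authors discarded multi-mapped reads, peaks in repeats were harder to call, and the share of the genome is not a like comparison.

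The peaks were found on every autosome, at 3.38 per 10 Mb overall. Chromosome 9 held the most for its length, with 94 peaks or 7.76 per 10 Mb, followed by chromosome 19 with 5.33, chromosome 6 with 4.99, chromosome 11 with 4.97 and chromosome 2 with 4.93. NSC peaks were also densest on these 5 chromosomes, with 76.8 per 10 Mb on chromosome 9 and 49.1 to 59.6 on the other 4. Chromosome 16 had few NSC Bmi1Over peaks at all, but 21 of them were unshared and 49 shared (30.0% unshared), where the other autosomes ranged from 10.8% to 17.7%. Cut into windows of 1 Mb, the genome held unshared peaks in 441 windows, and 33 windows with at least 5 of them held 203 peaks.

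The window with the most, chr16:37000001-38000000, had 10 unshared peaks, 8 shared peaks and 39 NSC peaks. Of the 10, 9 lay in introns of Stxbp5l, which codes for a tomosyn-like protein that restrains synaptic vesicle release, and the other 6473 bp upstream of it. Their lengths were 200 to 564 bp and their fold enrichments 4.03 to 5.93. The peaks lay near the start of the gene and at 190210 to 235360 bp of its 270021 bp. NSC peaks also lay in both parts, with gaps of 107 to 1529 bp to the nearest NSC peak. An exception was the peak of highest fold enrichment in the gene, at chr16:37283755-37283964, which stood 44004 bp from the nearest NSC peak. Stxbp5l was at 0.507 and 0.316 CPM in NSC and at 0.4 and 0.332 CPM in the libraries labelled NSC Bmi1Over, with overlapping groups (log2 fold change −0.24, adjusted p = 0.76, edgeR).

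**Figure D4:**
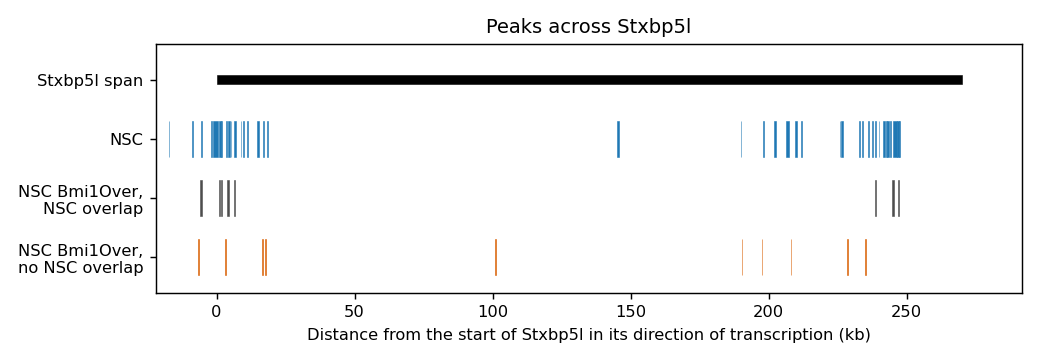
Map of Stxbp5l, with the distance from its start in the direction of transcription on the horizontal axis (kb) and, from top to bottom, the gene span, NSC peaks, shared NSC Bmi1Over peaks and unshared NSC Bmi1Over peaks. Of the 10 unshared peaks drawn, 9 lie in the gene, and all but 1 of them lie among the NSC peaks near its start or towards its end.

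The window chr9:33000001-34000000 held 9 unshared peaks with 7 shared and 26 NSC peaks. Of these, 8 lay at chr9:33051456-33084854 in introns of the noncoding gene Gm27166, 355072 bp or more from the TSS of Ets1, a transcription factor of blood and vessel lineages. They included the peak of second highest fold enrichment of all (6.80), whose sequence is printed above, and their gaps to the nearest NSC peak were 17 to 1685 bp. With 8 unshared peaks each, 4 windows came next. The window chr11:96000001-97000000 covers the Hoxb cluster, homeobox genes of the body axis, and held 100 shared and 77 NSC peaks. The window chr7:62000001-63000000 covers Magel2, Mkrn3 and Ndn, imprinted genes of the Prader-Willi region, and held 26 shared and 65 NSC peaks. The others were chr9:60000001-61000000 around Thsd4 and chr9:61000001-62000000 around Tle3, a Groucho-type corepressor.

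Inside genes, 228 protein-coding genes held at least 1 unshared peak in their span, and 19 held 3 or more. These genes were long, with a median span of 72780 bp against 17630 bp for all autosomal protein-coding genes, and 196 of the 228 also held an NSC peak. Most peaks by count were in Gm20388, with 14, but this is a readthrough model of 4434882 bp that spans many genes. Stxbp5l came next with 9. Kcnq1, Foxp2, Thsd4 and Tenm4 held 5 each, and Aldh1a2, Kif5c, Iqch and Lrba 4 each. For their span, Aldh1a2 had the most of these 10, at 4.97 per 100 kb.

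Several of these genes are known for roles in development or the nervous system. All 5 peaks in Kcnq1, a potassium channel gene in an imprinted domain, lay in the exon of Kcnq1ot1, the antisense noncoding RNA of that domain, at 322 to 1333 bp from NSC peaks, with fold enrichments of 4.28 to 5.60. In Foxp2, 3 of the 5 peaks lay together at chr6:15292539-15295463, at 2, 552 and 53 bp from NSC peaks, and the middle one was among the 10 of highest fold enrichment (6.31). In Aldh1a2, which makes retinoic acid, a patterning signal, 3 of the 4 peaks lay between chr9:71254703-71256483, with fold enrichments of 5.52, 5.19 and 4.32. Tenm4, a teneurin of neuronal wiring, held its 5 peaks at 23 to 705 bp from NSC peaks, among 50 NSC peaks and 27 shared peaks.

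The 10 unshared peaks of highest fold enrichment were between 200 and 369 bp long. Those at 6.60 or more included the one in the Gm27166 intron and those at chr13:54443092-54443316 (6.72) between genes, at chr7:130975612-130975830 (6.61) where introns of Fgfr2, a growth factor receptor, and Htra1, a secreted protease, overlap, and at chr12:73536845-73537092 (6.60) near Tmem30b. The span annotated for Fgfr2 is 2960900 bp, and the coding TSS nearest to the peak there, at 5840 bp, was that of Htra1. The 5 peaks below 6.60 were in introns, of Kbtbd12, of Shisal1, of Foxp2, of the noncoding gene Gm34322 near Tle3, and of the noncoding gene Gm32061 at 873 bp from Magel2. An NSC peak lay within 1 kb of 7 of these 10 and within 5 kb of 9, the exception being the peak in Shisal1 at 17958 bp. Of the 5 longest, the first measured 801 bp at chr8:121395536-121396336 in Gm20388, 3 bp from an NSC peak, and the next 729 bp at chr6:6820368-6821096 in the noncoding gene Dlx6os1, 417 bp from one. The others were 711 bp at chr4:3917691-3918401 in Plag1, a zinc finger factor of growth, 21 bp from an NSC peak, 675 bp at chr10:95029060-95029734, 7464 bp from one, and 639 bp at chr1:38444049-38444687 in Aff3, a transcription elongation factor, 12 bp from one.

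Near promoters, 196 protein-coding genes had an unshared peak within 5 kb of a TSS, and 47 within 1 kb. Of the 196, 159 also had an NSC peak in the same window and 89 a shared peak, which left 37 genes without an NSC peak there. For comparison, 1682 autosomal protein-coding genes had an NSC peak within 5 kb. Only 5 unshared peaks spanned a TSS, among them those of Bmp4, Cux2, Neu2 and Tdh. The peaks at Bmp4, a bone morphogenetic protein ligand, and at Cux2, a homeobox gene of upper-layer neurons, were each 12 bp from an NSC peak, with fold enrichments of 4.66 and 4.80.

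Within 1 kb, the highest fold enrichments were found at Magel2 (6.42), Ppef2, a phosphatase of sensory cells (5.86), Tenm2, a teneurin (5.59), Pak7, a neuronal kinase (5.50) and Mmp24, a membrane-bound metalloproteinase (5.01). The peaks at Magel2, Pak7 and Mmp24 lay 82, 117 and 188 bp from an NSC peak and that at Ppef2 1000 bp, whereas the peak at Tenm2 lay 557110 bp from one. Next were Fxyd5 (4.98), Wee2 (4.84), Hecw1 (4.81), Hey2, a Notch target that keeps progenitors undifferentiated (4.80), Cux2 (4.80), Syt14 (4.75), Shank2, a scaffold of excitatory synapses (4.74), Ggt1 (4.73), Nts, the neuropeptide neurotensin (4.72) and Bmp4 (4.66). Of these 15 peaks, those at Tenm2, Fxyd5 and Nts were over 5 kb from every NSC peak. A gene of the Polycomb machinery itself, Pcgf2, the paralogue of Bmi1, had an unshared peak of fold enrichment 4.47 at chr11:97692603-97692890, 194 bp from its TSS and 6 bp from an NSC peak. It was picked out for its name and is not among the 15.

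By gene family, an unshared peak in the gene span or within 5 kb of a TSS was found for 313 of 20807 autosomal protein-coding genes (1.5%). Developmental transcription factors, of which 144 of 213 (67.6%) had an NSC peak near a TSS, had an unshared peak in 12 cases (5.63%), among them Dlx5, Lhx6, Six3, Tbx18, Gata6 and Pou4f3. The list was matched by name, and Pou2af1 in it is a coactivator, not a POU factor. Of 77 axon guidance genes 5 had one (6.49%), which were Efna5, Epha7, Plxna4, Slit1 and Slit2, and only 1 of these near a TSS. Of 130 cell adhesion genes 7 had one (5.38%), which were Cdh15, Cntn2, Ctnna2, Lrrtm1 and the teneurins Tenm2, Tenm3 and Tenm4. Wnt and Bmp signalling had 5 of 72 (6.94%), namely Bmp4, Bmp6, Gdf6, Tgfbr3 and Wnt10a. Ion channels and receptors had 9 of 234 (3.85%), including Kcnj3 and Ryr2 and also Trp73, a p53-family gene matched by its letters only. Solute carriers had 12 of 358 (3.35%), including Slc6a3, the dopamine transporter, and Slc17a6, a glutamate transporter. Collagens, laminins and integrins had 2 of 91 (2.2%). Shares below that of all genes were found in zinc finger proteins (2 of 388, 0.515%), olfactory receptors (3 of 1128, 0.266%) and vomeronasal receptors (0 of 327). In each of these lists except the vomeronasal receptors, more genes had an NSC peak near a TSS than had an unshared peak. Gene length also differs between the families, and its part was not tested.

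The 59 peaks over 100 kb from every NSC peak were at or near the shortest length more often than all unshared peaks, and poorer in GC. Their median length was 200 bp and 38 of them (64.4%, interval 51.7 to 75.4%) were within 1 bp of this length, with a median fold enrichment of 4.43 and a median GC content of 40.3%. Masked bases made up 24.2% of their sequence, and 10 (16.9%) were masked over more than 50%. Nevertheless, 21 (35.6%, interval 24.6 to 48.3%) lay within 5 kb of a coding TSS, against 23.9% of all unshared peaks and 14.7% of autosomal bases. Genes with such a peak near a TSS included Nts, Chgb, a granin of secretory vesicles, Kcnj3, a G-protein-gated potassium channel, Ryr2, a calcium release channel, Dazl, a germ cell RNA-binding protein, the olfactory receptor Olfr94, Klre1, a natural killer cell receptor, and B3galt5, a galactosyltransferase. The farthest, at chr13:67118424-67118623 and 4159283 bp from an NSC peak, was masked over its whole length. The next were at chr17:3638968-3639167 in an intron of Nox3 (fold enrichment 5.33), at chr7:117755529-117755801 between genes (4.94), at chr4:94410955-94411407 in the noncoding gene Gm12648 (4.14), and at chr2:55439278-55439496 in an intron of Kcnj3, 2113 bp from a TSS (4.98).

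RNASeq, which played no part in choosing the peaks, was used to ask at what level the genes beside them were expressed and whether they differed between genotypes. Genes with an unshared peak within 5 kb of a TSS were mostly silent or low. Of the 196, 195 were in the count files, 24 of them had no read in any library, and 101 had enough reads to be tested. Their median level per length was 0.0686 and 0.0565 FPKM in the NSC libraries and 0.0687 and 0.101 FPKM in those labelled NSC Bmi1Over, where all autosomal protein-coding genes had medians of 1.05 to 1.18 FPKM. At least 1 FPKM was reached by 40 (20.5%) in either genotype, against 50.4% and 51.0% of all. The genes with an NSC peak and no unshared peak in the window were at much the same level, with medians of 0.0861 to 0.115 FPKM. Exceptions included Nudc, a dynein regulator, at 94.8 and 96 FPKM in NSC and 98.4 and 77.1 FPKM in the libraries labelled NSC Bmi1Over, and Hes1, a Notch target of neural progenitors, at 21.9 and 17.7 against 17.2 and 16.8 FPKM.

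Across all 15521 genes tested, 2.15% were called (quasi-likelihood test of edgeR, adjusted p under 0.05), 2.03% as higher in the libraries labelled NSC Bmi1Over and 0.122% as lower. Of the 101 tested genes with an unshared peak within 5 kb of a TSS, 2 were called (1.98%), both higher and 0 lower, a share near that of all genes. At an unadjusted p under 0.05, 24 were higher and 3 lower (26.7%, against 24.2% of all genes), and DESeq2 called 12 higher and 0 lower (11.9%, against 9.64% of all genes). The count of 2 depended on single libraries: it was 15 without NSC replicate 2 (13.9%, against 8.93% of all genes in that fit), 18 without NSC Bmi1Over replicate 1 (17%, against 15.6%), 4 without NSC Bmi1Over replicate 2 (3.88%, against 1.45%) and 2 without NSC replicate 1 (1.96%, against 1.11%). Each of these fits leaves a group with 1 library, which is assumed to vary like the other group, so that the spread comes from that group alone. The median log2 fold change of the 101 genes was 0.21, with 60 above 0 and 41 below, whereas that of all genes tested was −0.01. It was 0.33 without NSC Bmi1Over replicate 1 and 0.05 without NSC Bmi1Over replicate 2. The 773 tested genes with an NSC peak and no unshared peak had a median of 0.18, and 31 of them (4.01%) were called, all higher. With library size as the sole scaling, the median of all genes moved to −0.17, that of the 101 genes to 0.05, and the calls over all genes from 315 higher and 19 lower to 346 higher and 191 lower.

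Nearer to the TSS there were fewer genes to test. Of the 47 genes with an unshared peak within 1 kb, 22 were tested and edgeR called 0 of them. At an unadjusted p under 0.05, 4 of these were higher and 0 lower (18.2%, against 24.2% of all genes), and DESeq2 called 2 (9.09%, against 9.64%). Their median log2 fold change was 0.38. Magel2 was at 1.36 and 1.19 CPM in NSC and at 0.571 and 0.962 CPM in the libraries labelled NSC Bmi1Over, without overlap (log2 fold change −0.64, adjusted p = 0.30, edgeR). Hey2 was at 2.25 and 1.31 against 0.914 and 1.35 CPM, with overlapping groups (−0.60, adjusted p = 0.33, edgeR). Cux2 was at 11.2 and 11 against 11.5 and 14.7 CPM, without overlap (0.25, adjusted p = 0.41, edgeR). Pcgf2 was at 6.24 and 7.95 against 8.40 and 15.9 CPM, again without overlap (0.81 ± 0.29 (SE), adjusted p = 0.14, edgeR). None of these differences passed the test, and Bmp4, Nts, Fxyd5, Wee2, Hecw1 and Ppef2 had too few reads to be tested.

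Of the 2 called genes, Emp1, an epithelial membrane protein, was at 11.5 and 10.6 CPM in NSC and at 34.7 and 31.8 CPM in the libraries labelled NSC Bmi1Over, so that the groups were far apart (log2 fold change 1.58 ± 0.14 (SE), adjusted p = 0.0039, edgeR). Its peak, at chr6:135357765-135357980 with a fold enrichment of 4.64, lay 4565 bp from the TSS and 6131 bp from an NSC peak, and the 5 kb windows around its start sites also held an NSC peak and a shared peak. B3galt5 was at 12.5 and 12.1 CPM in NSC and at 32.9 and 29.1 CPM in the others (1.33 ± 0.14 (SE), adjusted p = 0.0077, edgeR). Its peak, at chr16:96274672-96274871 in an intron with a fold enrichment of 4.46, lay 1061 bp from a TSS and 690874 bp from any NSC peak. Of the 37 genes without an NSC peak in the window, 15 were tested and B3galt5 alone was called (6.67%, against 2.15% of all genes). The median log2 fold change of these 15 was −0.11.

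**Figure D5:**
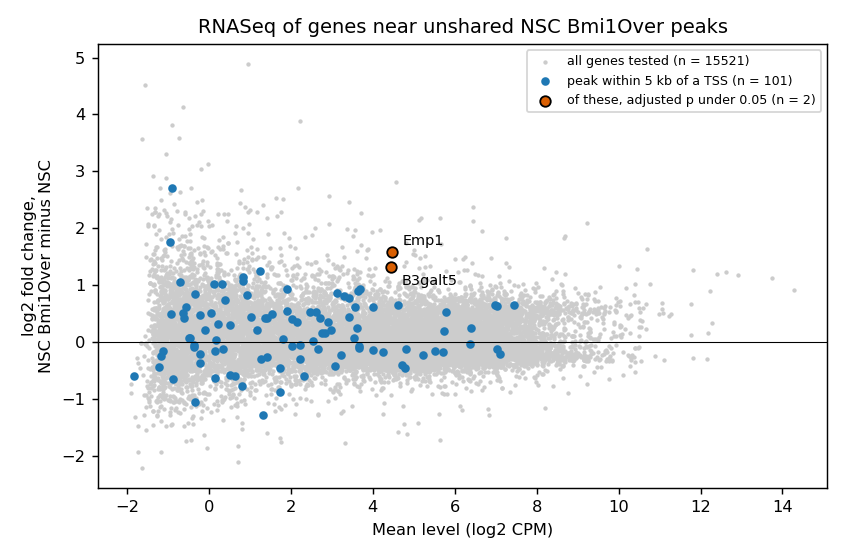
Log2 fold change of the libraries labelled NSC Bmi1Over over NSC (vertical axis) against the mean level (log2 CPM, horizontal axis), for the 15521 genes tested (grey) and the 101 with an unshared peak within 5 kb of a TSS (blue), with the 2 called genes ringed (orange). The blue points lie on both sides of 0, with 60 above it, and Emp1 and B3galt5 are the called ones, at 1.58 and 1.33.

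Genes that held an unshared peak anywhere in their span were also compared. Of 228, 227 were in the count files and 124 were tested, and 7 were called (5.65% against 2.15% of all genes), 7 higher and 0 lower. At an unadjusted p under 0.05, 33 were higher and 5 lower (30.6%, against 24.2% of all genes), and DESeq2 called 18 higher and 1 lower (15.3%, against 9.64%). The count was 5 without NSC replicate 1 (4%, against 1.11% of all genes), 20 without NSC replicate 2 (14.9%, against 8.93%), 29 without NSC Bmi1Over replicate 1 (21.8%, against 15.6%) and 7 without NSC Bmi1Over replicate 2 (5.56%, against 1.45%). The median log2 fold change was 0.26. These genes are longer than others, and the share of the difference that goes with length or with the many NSC peaks in them was not tested.

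Among the 7, Tenm4 rose from 17.9 and 19.9 CPM in NSC to 50.7 and 54.5 CPM (log2 fold change 1.48 ± 0.13 (SE), adjusted p = 0.0039, edgeR). It was the called gene with the most unshared peaks, 5. Itga9, an integrin subunit, rose from 4.88 and 7.20 to 16.3 and 20.1 CPM (1.61 ± 0.22, adjusted p = 0.019, edgeR), and Gabbr2, a GABA receptor subunit, from 9.47 and 10.1 to 23.7 and 21 CPM (1.19 ± 0.15, adjusted p = 0.016, edgeR). Plxna4, a semaphorin receptor of growing axons with 2 unshared peaks, rose from 17.3 and 20.1 to 32.3 and 41.6 CPM (0.99 ± 0.16, adjusted p = 0.033, edgeR). In none of these genes did the groups overlap. Atoh8, a basic helix-loop-helix factor, was low throughout, at 0.254 and 0.198 against 1.26 and 0.927 CPM (2.19 ± 0.43, adjusted p = 0.045, edgeR). Atoh8 was lost without NSC replicate 1 (adjusted p = 0.12, edgeR) and without NSC Bmi1Over replicate 2 (adjusted p = 0.089, edgeR), while Tenm4, B3galt5, Emp1, Gabbr2, Itga9 and Plxna4 were called in every setting tried. B3galt5, described above, is also among the 7.

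Other genes with 4 or more unshared peaks were silent or did not pass the test. Foxp2 was at 4.12 and 3.36 CPM in NSC and at 2.40 and 3.01 CPM in the libraries labelled NSC Bmi1Over, without overlap (log2 fold change −0.45, adjusted p = 0.31, edgeR). Kif5c, a neuronal kinesin, was at 6.88 and 10.6 against 16.7 and 16.7 CPM (0.94, adjusted p = 0.063, edgeR). Lrba, a vesicle trafficking protein, was at 41.8 and 35.6 against 28.1 and 27.8 CPM (−0.47, adjusted p = 0.09, edgeR). Aldh1a2 had no read in any of the 4 libraries, and Kcnq1 and Iqch had at most 0.0791 CPM. Of the axon guidance genes with an unshared peak, Epha7, an Eph receptor, had a log2 fold change of 0.91 (adjusted p = 0.063, edgeR), and Plxna4 was the one called. For the Polycomb machinery, the log2 fold change was −0.07 for Ezh2, −0.10 for Suz12 and −0.08 for Eed of PRC2, −0.30 for Rnf2 (adjusted p = 0.18, edgeR), 0.17 for Ring1, 0.15 for Cbx2 and 0.40 for Cbx7 of PRC1, and −0.29 for the H3K27 demethylase Kdm6b (adjusted p = 0.36, edgeR).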

How the data were processed

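H3K27me3 ChIPSeq was analysed in 1 library each of NSC and NSC Bmi1Over, and RNASeq in 2 cultures of each. For ChIPSeq, the authors trimmed reads with Trim Galore, aligned them with Bowtie2 2.3.4 to mm10 with multi-mapped reads discarded, chose 1 replicate per condition and called broad peaks per library with MACS2, the shifting model and dynamic lambda disabled. The deposited lists hold the fold enrichment of every peak, which is a ratio to the MACS2 background, with −log10 p-values and q-values, but no depth. For RNASeq, the authors aligned with STAR and deposited counts of reads per gene, not normalised. Reads outside genes or placed ambiguously (27.8% to 34.1% of each file's total) stayed out of library sizes and tests.

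Peaks were intersected in Python 3.11.15 and placed on GENCODE M21 and RefSeq GRCm38.p6, both of the build of the files. Repeats are the lower-case bases of the RefSeq sequence. Unstranded counts were fitted in R 4.3.3 with edgeR 4.0.16 (filterByExpr, TMM, quasi-likelihood test, no replicate term), and the SE was taken as the log2 fold change over the root of F. A gene was called at an adjusted p (Benjamini-Hochberg) under 0.05. CPM uses TMM-scaled library sizes, and FPKM divides it by exon length in kb. A gene and its antisense partner cannot be told apart in unstranded counts. Replicates are separate cultures in the methods. The steps were tested on simulated data.

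The regions, gene lists and tests were chosen with earlier results of these data known. The rule took the 10 peaks of highest fold, the 5 longest, 5 farthest from and 5 closest to an NSC peak, up to 15 genes by fold within 1 kb of a TSS, up to 10 genes with 3 or more peaks, up to 15 called genes, the 3 fullest windows, and Bmi1. Other genes, among them Pcgf2, the genes called by peaks in their span and the members of gene families, were named after their values were seen. Alternatives were other limits on fold, q, length, overlap and distance, X and Y, other gene sets and windows, DESeq2 1.42.0, other scalings, no filter on low counts, a replicate block, and each library left out in turn. A limit of under 300 bp was added after the data were seen. Some genes and 1 peak that these rules take are not reported here.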

Additional observations from a re-analysis of the deposited data

How the results depend on the processing

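Of 75 alternative values, 37 stayed within the counting interval, the spread or 1.5 times the reported count, and 38 moved. For masked bases the interval took every base as independent, which neighbouring bases are not. It is therefore too narrow, and 5 of the 38 rest on it. Among those that moved, the median log2 fold change changed sign for the 15 genes without an NSC peak. The number of unshared peaks, 809, was 139 at a fold of at least 5, 249 at a −log10 q of at least 3, 254 at a length of at least 300 bp, 335 and 177 when peaks had to lie over 1 or 5 kb from NSC peaks, 1506 with chromosomes X and Y, and 1342 when only NSC peaks of −log10 q of at least 3 counted. The share within 5 kb of an NSC peak, 78.1%, was 82.7% at a fold of at least 5, 87.0% at 300 bp or more, 58.8% with only NSC peaks of −log10 q of at least 3, and 58.6% with a distance of 1 kb. The share in no gene, 47.3%, was 42.9% at 300 bp or more and 60.3% with coding genes only. The share within 5 kb of a coding TSS, 23.9%, was 5.69% for 1 kb and 32.5% for any gene. GC content was 44.6% at a fold of at least 5. Masked bases were 21.5% at that fold, 20.5% at the stricter q, 21.4% at 300 bp or more, 18.8% under 300 bp and 21.3% over 5 kb from NSC peaks. The cause of these shifts was not tested.

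The count of called genes within 5 kb, 2, was 4 with library size alone (3.96%, against 3.46% of all genes), 12 with DESeq2 (11.9%, against 9.64%), 23 without a filter (13.5%, against 8.25%), 23 with the replicate block (22.8%, against 22.3%), 2 to 18 with a library left out, and 1 without an NSC peak in the window. It was 0 with a window of 1 kb, and 0 in edgeR for peaks of fold at least 5 (19 tested, 4 or 21.1% at an unadjusted p under 0.05, 1 or 5.26% by DESeq2) or −log10 q at least 3 (35 tested, 9 or 25.7% and 4 or 11.4%), where all genes had 24.2% and 9.64%. The median log2 fold change, 0.21, was −0.11 without an NSC peak in the window. The count by gene span, 7, was 19 with DESeq2 (15.3%), 32 without a filter (15.9%), 34 with the replicate block (27.4%) and 5 to 29 with a library left out. Over all genes the replicate block called 3459. Samples share only a number (correlation of deviations 0.235 over 2 pairs). ChIPSeq depth is not in the lists. The study's methods give aligned read totals, which differed between the replicates of a condition and between conditions. They state that the weakest samples were left out, but do not name the replicates kept. The part of depth in the peak calls was not tested, so a missing NSC peak is a peak not called.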
